A study of Danio rerio with 6 samples.

Results

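A set of 7 genes that mark the nasal or the temporal side of the retina was followed in single cells of the 48 hpf zebrafish eye. Of these, 3 are temporal genes (foxd1, epha4b and epha7), and 4 are nasal genes (foxg1a, hmx1, hmx4 and efna5a), out of 25109 features in the count tables. All 7 symbols were found in the files, each on 1 row. The cells came from F1 embryos carrying 1 dual reporter cassette, in which the human PAX6 enhancer NRE drives eGFP and the human PAX6 enhancer HS5 drives mCherry, each from a minimal promoter. Eyes were dissected from pooled embryos, treated against pigment formation, and sorted by FACS into an mCherry-enriched sample (HS5-active cells) and an eGFP-enriched sample (NRE-active cells). Each sort was taken in 3 replicates, which gave 6 libraries of 10x 3′ RNA-seq. By the paper's FACS legend, the first round of sorting collected cells positive for both reporters in place of all mCherry-positive cells. By the methods, the eGFP-enriched samples took cells positive for eGFP alone. The mCherry-enriched samples took cells with mCherry alone or with both reporters. The labels do not tie replicate numbers to rounds, and the first round was read here as replicate 1. All 6 libraries therefore share the transgene, the age and the treatment, no library is free of reporter, and unsorted cells were not measured. Because the animals of a library were pooled, p-values measure the spread between libraries and not between animals. By the FACS legend each round gave 1 sample of either sort, so the 6 libraries came from 3 rounds. They need not be 6 independent pools, and only the blocked comparison of the sorts had a term for the round.

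The eye cup is divided early into a nasal and a temporal side by transcription factors that are kept apart. Foxd1 works on the temporal side, and the homeobox factors Hmx1 and Hmx4 act on the nasal side. The position of a retinal ganglion cell (RGC) is then read by its axon in the tectum through Eph receptors, which are high in temporal axons, and through ephrin-A ligands, which are high on nasal ones. In this set epha4b and epha7 encode receptors of the Eph family, and efna5a encodes an ephrin-A ligand. In the annotation used for names, hmx1 and hmx4 are direct neighbours.

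The UMI counts of all 7 genes were read in barcodes with at least 1000 genes and at most 10% mitochondrial UMIs. This kept 5606 barcodes. The mCherry-enriched libraries held 376, 218 and 597 of them and the eGFP-enriched libraries 2027, 85 and 2303, in the order of replicates 1 to 3, and median depths were 4302 to 12022 UMIs a library. Cells were gated into classes with fixed lists of other markers, and 592 barcodes gated as lens, blood, pigment, mesenchyme or other non-retinal tissue were left out. Of the 5014 retinal barcodes, 4194 fell into 9 named retinal classes and 820 stayed ungated. Stem cell-gated barcodes held a median of 6 of 8 stem cell markers and 2 of 8 Müller glia markers, but by UMIs the Müller glia markers were the larger group there, with medians of 49.6 against 35.2 per 10000. Only 4 barcode sequences occurred in more than 1 library. Depth was uneven: 665 retinal barcodes had more than 20000 UMIs, of which 121 were in mCherry-enriched and 461 in eGFP-enriched replicate 1. Results on co-detection are therefore also given for the 4349 barcodes with at most 20000 UMIs, a limit set after the UMI counts had been seen.

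Free RNA carried several of the genes. In the pooled barcodes with at most 100 UMIs, foxd1 stood at 17.7 to 36.4 UMIs per 1000000 (CPM) across the 6 libraries, and its level in retinal barcodes was 0.141 to 1.39 times that. For foxg1a the retinal level was 2.09 to 13.0 times the level in those empty barcodes. Red blood cell-gated barcodes, which should hold none of the 7 genes, had a foxd1 UMI in 9.62% of cells and hmx1 in 18.3%, at a median depth of 4011 UMIs, against 12.8% and 31.6% of all retinal barcodes at 6818 UMIs. They had foxg1a in 3.85%, hmx4 in 15.4%, efna5a in 2.88%, epha7 in 1.92% and epha4b in 0 of 104 cells, which allows up to 2.88% at 3 counts. Of these 104 barcodes 57 and 32 came from mCherry-enriched replicates 2 and 3 and 0 from eGFP-enriched replicate 3, so their free RNA is mainly that of other libraries than those of most retinal barcodes. The part of free RNA in the co-detection counts was not tested.

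The first question was whether nasal and temporal genes are found in the same cells. For each of the 21 gene pairs, barcodes with a UMI of both genes were counted and set against the number expected from each gene's detection rate within each library and each of 5 strata of UMI depth. All 3 temporal pairs occurred together more often than expected, with odds ratios of 2.67 to 3.54. The 6 nasal pairs did so too, with odds ratios of 2.06 to 4.90. Of the 12 pairs of a temporal with a nasal gene, 10 occurred together less often than expected, and the odds ratios ranged from 0.429 to 1.34. Among barcodes with at most 20000 UMIs these ranges were 1.96 to 2.43 for temporal pairs, 1.79 to 4.71 for nasal pairs and 0.233 to 1.25 for mixed pairs, with 10 of 12 mixed pairs again below expectation. The count of mixed pairs below expectation was 6 of 12 without eGFP-enriched replicate 3, and 0 of 12 when barcodes with at least 500 genes and 800 UMIs were admitted.

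**Figure D1:**
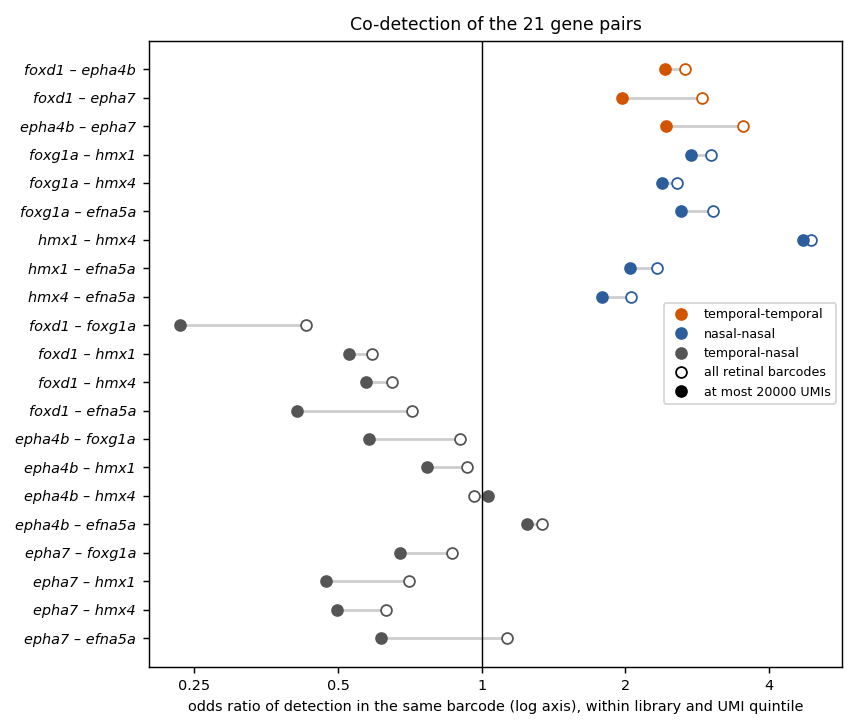
Odds ratio of detection in the same barcode (x axis, log scale) for the 21 gene pairs (rows), coloured by kind of pair, in all retinal barcodes (open) and in those with at most 20000 UMIs (filled). All temporal pairs and all nasal pairs lie right of 1, and foxd1 with foxg1a lies farthest left, at 0.233 in barcodes with at most 20000 UMIs.

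foxd1 and foxg1a, the transcription factors of opposite sides, were the most exclusive pair. In the 5014 retinal barcodes, foxd1 was detected in 640 and foxg1a in 1127, and both were detected in 193 where 246 were expected (odds ratio 0.429). At 20000 UMIs or less the overlap was 20 barcodes where 63.3 were expected (odds ratio 0.233), so that 5.99% of foxd1-positive barcodes held foxg1a. The observed number was below the expected one in each of the 6 libraries, whether or not the deepest barcodes were included. With at most 20000 UMIs there were 1, 0 and 1 such barcodes in mCherry-enriched replicates 1 to 3, where 4.75, 2.18 and 4.61 were expected. In eGFP-enriched replicates 1 to 3 there were 14, 0 and 4, where 28.8, 0.0769 and 22.8 were expected.

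The exclusion varied with depth and was not seen above 50000 UMIs. Below 5000 UMIs, 3 barcodes held both foxd1 and foxg1a against 9.03 expected, and from 5000 to 10000 UMIs 5 did against 22.4. From 10000 to 20000 UMIs the counts were 12 observed and 32.1 expected. Between 20000 and 50000 UMIs, in 414 barcodes, they were 41 observed and 59.3 expected (odds ratio 0.405). Above 50000 UMIs, in 251 barcodes, both genes were found in 132 where 131 were expected, and foxd1 was detected in 162 of these barcodes. Doublets were not called, so whether such barcodes hold more than 1 cell was not tested. When barcodes with at least 500 but fewer than 1000 genes were added, which were 83.2% of the barcodes of eGFP-enriched replicate 1 at that setting, the odds ratio of foxd1 with foxg1a turned to 1.4 in 5 depth strata a library and was 0.623 in 20.

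foxd1 was less sharply separated from the HMX factors. It was found with hmx1 in 288 barcodes where 329 were expected (odds ratio 0.589) and with hmx4 in 334 where 371 were expected (0.649). In the shallower barcodes the counts were 65 against 97.9 for hmx1 (0.528) and 92 against 127 for hmx4 (0.573). Even there, 27.5% of foxd1-positive barcodes held an hmx4 UMI, and foxd1 with hmx4 was above expectation in 2 of the 6 libraries. The ephrin gene efna5a was found with foxd1 in 18 barcodes with at most 20000 UMIs, where 38.2 were expected (odds ratio 0.411), and was below expectation in 4 of the 5 libraries in which a comparison could be made.

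The nasal genes were found together as well. The neighbouring genes hmx1 and hmx4 were detected together in 1139 barcodes where 827 were expected (odds ratio 4.90), and 71.9% of hmx1-positive barcodes were hmx4-positive. foxg1a was found with hmx1 in 680 barcodes against 516 expected (3.03), with hmx4 in 749 against 601 (2.56) and with efna5a in 384 against 275 (3.05). Among the shallower barcodes, 5 of the 6 nasal pairs were above expectation in all 6 libraries, and hmx4 with efna5a was so in 5. Levels moved with detection: hmx4 stood at 62.9 CPM in barcodes without an hmx1 UMI, at 144 CPM in those with 1, at 334 CPM in those with 2 or 3 and at 808 CPM in the 153 barcodes with 4 or more, of which 95.4% held hmx4.

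Among the temporal genes, foxd1 was found with epha4b in 114 barcodes where 75.3 were expected (odds ratio 2.67) and with epha7 in 128 where 84.7 were expected (2.898). The receptor genes epha4b and epha7 shared 72 barcodes, against 35.6 expected (3.54). In the shallower barcodes the overlaps were small, 26 against 12.9, 23 against 13.5 and 12 against 5.52. epha7 stood at 6.1 CPM in barcodes without foxd1, at 4.67 CPM in those with 1 foxd1 UMI, at 16.6 CPM in those with 2 or 3 and at 44.8 CPM in the 27 barcodes with 4 or more. The receptor epha4b stood at 4.64, 8.30, 17.8 and 12.0 CPM in the same 4 groups of barcodes. The 2 mixed pairs that were not below expectation in shallow barcodes both involved epha4b, with hmx4 (53 against 52.2) and with efna5a (18 against 15.1).

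When barcodes with at most 20000 UMIs were divided by how many of the nasal factors foxg1a, hmx1 and hmx4 they held, foxd1 and efna5a ran in opposite directions. foxd1 was found in 9.45% of the 2202 barcodes with none of the nasal factors, with a 95% exact binomial interval of 8.26 to 10.7%. It was found in 6.73% of 1219 barcodes with 1 of them, in 5.54% of 668 with 2 and in 2.69% of 260 with all 3 (interval 1.09 to 5.47%). Median UMIs were 5031, 6401, 7626 and 9285 in these groups, so depth rose while the share of foxd1 fell. Over all retinal barcodes, the deepest included, the share did not fall: it was 11.1, 9.03, 12.6 and 28.0% with 0 to 3 factors, at median depths of 5202, 6701, 9027 and 25095 UMIs, while the CPM of foxd1 was 35.0, 17.5, 18.2 and 14.4.

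For efna5a, which was not used to form the groups, the shares were 5.59% (interval 4.66 to 6.63%), 9.60%, 15.9% and 24.6% (interval 19.5 to 30.3%). The CPM of efna5a was 12.4, 17.2, 26.7 and 34.8 in the same order. Median depth rose in that order too, and the part of depth in the trends of efna5a and foxd1 was not tested. epha7 was found in 4.09%, 2.54%, 1.95% and 2.31%, and epha4b in 3.22%, 2.30%, 2.99% and 4.62%. Neither receptor gene thus showed a steady order. Intervals here and elsewhere cover counting error only, and cells of 1 library are not independent samples.

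**Figure D2:**
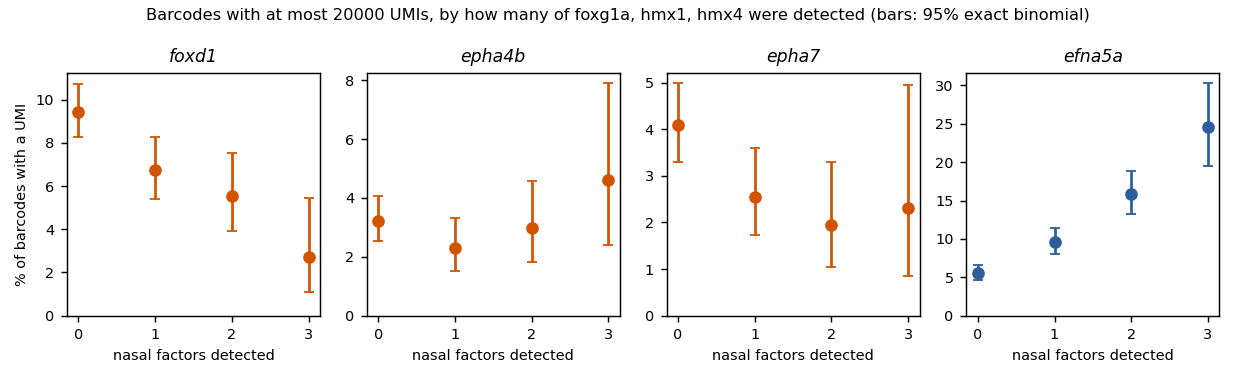
Share of barcodes with a UMI of foxd1, epha4b, epha7 and efna5a (y axis, %) against the number of nasal factors detected (x axis), in retinal barcodes with at most 20000 UMIs. Bars are 95% exact binomial intervals. foxd1 falls to 2.69% and efna5a reaches 24.6% where all 3 factors were found.

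The libraries were also taken one at a time. In eGFP-enriched replicate 1 its share was 6.90, 10.5, 15.02 and 27.4% with 0, 1, 2 and 3 nasal factors, and in eGFP-enriched replicate 3 it was 5.14, 9.14, 16.7 and 24.8%. In mCherry-enriched replicate 1 it was 5.15, 16.7, 22.6 and 40.0%, the last in 5 barcodes, but in mCherry-enriched replicate 3 it was 4.66, 5.30, 13.0 and 12.5%, with no further gain at 3 factors. It was 5.26, 8.82, 13.04 and 14.3% in mCherry-enriched replicate 2, and 3.03, 10.5, 10.0 and 0% in eGFP-enriched replicate 2, the last in 7 and in 5 barcodes. For foxd1 the share was lower with 3 factors than with 0 in 5 of 5 libraries that had foxd1 in barcodes without nasal factors, and 3 of those 5 had 16 or fewer barcodes with all 3 factors.

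Of the possible sets of factors in barcodes with at most 20000 UMIs, the absence of all 4 was the most frequent, in 1994 barcodes or 45.8%. hmx4 alone followed with 592, hmx1 with hmx4 had 411, hmx1 alone had 294, all 3 nasal factors without foxd1 had 253 and foxg1a alone had 251. foxd1 alone was found in 208 barcodes or 4.78%. foxd1 with foxg1a and no HMX factor was found in 10 barcodes, foxd1 with foxg1a, hmx1 and hmx4 in 7, and foxd1 with 1 or both HMX factors but no foxg1a in 23, 34 and 49. efna5a was at 28.4 CPM with foxg1a alone, 15.5 CPM with hmx1 alone and 15.02 CPM with hmx4 alone, against 13.3 CPM with none of the 4 factors and 6.71 CPM with foxd1 alone.

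Next, the pairs were counted within each gated class, again with at most 20000 UMIs. foxd1 with foxg1a was below expectation in 8 of 9 classes, the exception being photoreceptor-gated cells (3 observed, 2.70 expected). In RGC-gated cells, whose axons carry the map, 4 of 475 held both where 16.2 were expected, and 0 held foxd1 with efna5a where 7.59 were expected. In early RGC-gated cells 1 of 144 held foxd1 with foxg1a, against 7.68 expected. In progenitor-gated cells the counts were 3 against 10.6 and in stem cell-gated cells 3 against 7.08.

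hmx4 was common in RGC-gated cells. It was found in 325 of the 475, and 37 of the 65 foxd1-positive cells (56.9%) held it, against 45.7 expected (odds ratio 0.454). In stem cell-gated cells 4 of 33 foxd1-positive cells (12.1%) held hmx4, against 13.4 expected (odds ratio 0.125). In progenitor-gated cells 11 of 59 (18.6%) did, against 18.8 expected (odds ratio 0.427). The share was thus highest in RGC-gated cells, but the odds ratio there was near that in progenitor-gated cells. hmx1 with hmx4 was above expectation in all 9 classes, for example with 219 cells against 182 in RGC-gated and 135 against 99.7 in amacrine-gated cells. These are counts of cells and were not tested between classes.

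The levels of the 7 genes were also compared between classes. UMIs were summed per library and class and set against all other retinal barcodes of the same library, wherever a library held 10 or more cells of that class, with edgeR's quasi-likelihood test and an adjusted p under 0.05. Of 59 pairs of gene and class that could be tested, 6 were called higher and 10 lower. The share of all genes called ranged from 1.37% in early RGC-gated to 47.3% in stem cell-gated cells, and is given below for each class. In such sums, fewer cells with a gene and less RNA per cell cannot be told apart.

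Among the retinal classes, foxd1, the temporal factor, was highest in stem cell-gated cells, whose gate list includes nucleolar genes such as fbl, nop56 and nop58. Pooled over libraries it was at 47.9 CPM in these cells and at 119 CPM in pigment cell-gated barcodes, which were not counted as retinal. Its level in stem cell-gated cells was 86.6 and 139 CPM in mCherry-enriched replicates 1 and 3 and 26.9 and 66.5 CPM in eGFP-enriched replicates 1 and 3. It was above the other retinal cells in 4 of 4 libraries, 79.7 ± 46.5 against 18.2 ± 7.48 CPM (SD, n = 4; log2 fold change 2.1 ± 0.33, SE; adjusted p = 0.000867). In the same class epha4b was higher (12.9 ± 5.64 against 5.67 ± 1.05 CPM; log2 1.20 ± 0.30, adjusted p = 0.00949), and so was efna5a (24.5 ± 5.6 against 15.5 ± 4.31 CPM; log2 0.88 ± 0.18, adjusted p = 0.00386). hmx4 was lower there (62.9 ± 39.8 against 125.5 ± 31.6 CPM; log2 -0.78 ± 0.26, adjusted p = 0.0336). These 4 of 7 stand against 47.3% of all genes called in this class, which is near the same share. The stem cell call of epha4b was lost without eGFP-enriched replicate 3 (adjusted p = 0.0770), and that of hmx4 without eGFP-enriched replicate 3 or mCherry-enriched replicate 1 (0.132 and 0.102).

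The HMX factors were highest in RGC-gated cells. hmx4 stood at 336, 415 and 490 CPM in mCherry-enriched replicates 1 to 3 and at 326 and 715 CPM in eGFP-enriched replicates 1 and 3, which gave 456 ± 159 against 77.7 ± 22.0 CPM in the other retinal cells (SD, n = 5; log2 2.47 ± 0.22, SE; adjusted p = 0.00187). hmx1 was at 191 ± 70.0 against 48.9 ± 15.9 CPM (log2 1.90 ± 0.23, adjusted p = 0.00206). Among libraries with 10 or more cells of the class, every RGC-gated value of both genes lay above every value of early RGC-gated cells, the next class in order. epha4b was also higher (10.1 ± 5.01 against 4.93 ± 2.57 CPM; log2 1.07 ± 0.31, adjusted p = 0.0362), but this call was lost whenever any 1 of the 5 libraries was left out (log2 0.74 to 1.21, adjusted p 0.0511 to 0.0996). The 3 of 7 compare with 33.5% of all genes called in this class. foxd1, foxg1a, epha7 and efna5a had log2 differences of 0.26, 0.42, 0.04 and 0.20 there, none past the threshold.

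hmx4 was called lower in progenitor-gated, bipolar-gated and photoreceptor-gated cells, with 3, 1 and 4 of the 4 nasal genes called lower in these classes. The other retinal barcodes included RGC-gated cells, where hmx4 and hmx1 were highest, and their part in these calls was not tested. In progenitor-gated cells, which carry proliferation markers, hmx4 was at 56.4 ± 17.8 against 139 ± 29.1 CPM (SD, n = 6; log2 -1.27 ± 0.16, adjusted p = 0.000226) and hmx1 at 30.3 ± 19.6 against 71.1 ± 15.7 CPM (log2 -1.07 ± 0.21, adjusted p = 0.00217). foxg1a was called lower there too (log2 -0.52 ± 0.15, adjusted p = 0.0191), a call that 9 of 13 alternatives ended, among them the omission of any library other than eGFP-enriched replicate 2 (log2 -0.42 to -0.34). In bipolar-gated cells hmx4 (51.4 ± 27.6 against 131 ± 31.4 CPM; log2 -1.38 ± 0.24, adjusted p = 0.000696) and foxd1 (10.9 ± 7.66 against 23.8 ± 12.8 CPM; log2 -0.95 ± 0.25, adjusted p = 0.00804) were lower. The members called were 3 of 7 in progenitor-gated cells, where 34.3% of all genes were called, and 2 of 5 tested in bipolar-gated cells, where 44.3% were.

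In photoreceptor-gated cells all 4 nasal genes were lower, where 16.0% of all genes were called and 7.4% were called lower. The nasal factor hmx4 was at 32.4 ± 16.4 against 136 ± 34.9 CPM (SD, n = 5; log2 -2.1 ± 0.29, adjusted p = 0.00208) and hmx1 was at 33.1 ± 24.0 against 69.8 ± 16.8 CPM (log2 -1.43 ± 0.35, adjusted p = 0.0253). efna5a was at 4.43 ± 5.18 against 17.3 ± 4.15 CPM (log2 -1.76 ± 0.47, adjusted p = 0.0358) and foxg1a at 28.5 ± 15.5 against 48.5 ± 16.4 CPM (log2 -0.81 ± 0.22, adjusted p = 0.0361). The 3 temporal genes had log2 differences of -1.42 (foxd1), -1.09 (epha4b) and -1.11 (epha7) in these cells, none past the threshold (adjusted p 0.0872 to 0.172). Leaving out mCherry-enriched replicate 3 ended the calls of hmx1, foxg1a and efna5a (adjusted p 0.0712, 0.105 and 0.0729). Leaving out eGFP-enriched replicate 3 ended those of foxg1a (0.179) and efna5a (0.116), mCherry-enriched replicate 2 those of foxg1a (0.0777) and efna5a (0.0811), and mCherry-enriched replicate 1 that of foxg1a (0.0596).

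In the other 4 classes no member passed the threshold, with 20.5% of all genes called in amacrine-gated, 8.62% in Müller glia-gated, 3.54% in horizontal-gated and 1.37% in early RGC-gated cells. foxg1a was highest by mean in amacrine-gated cells, at 96.5 ± 81.8 CPM (SD, n = 6), yet its values there spanned 35.3 to 254 CPM. The 254 CPM came from 10 cells of eGFP-enriched replicate 2. Pooled over libraries, foxg1a was at 55.2 CPM in amacrine-gated cells. This was below RGC-gated (84.3), early RGC-gated (76.1), stem cell-gated (70.2) and Müller glia-gated cells (64.5 CPM). For foxd1, the order of class means was stem cell, RGC, early RGC, amacrine, progenitor, Müller glia, bipolar, photoreceptor and horizontal, and all neighbours in it overlapped across libraries. The same was true of the orders for epha4b, epha7, foxg1a and efna5a. By share of cells, foxd1 in amacrine-gated (9.05%), photoreceptor-gated (6.98%) and bipolar-gated cells (5.12%) was below its 9.62% in red blood cell-gated barcodes. The share of hmx1 in photoreceptor-gated cells (18.0%) was below its 18.3% in red blood cell-gated barcodes. These shares are not read as expression, although the red blood cell-gated barcodes came mostly from other libraries. The median depths of these 3 classes were 7546, 7487 and 3799 UMIs.

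**Figure D3:**
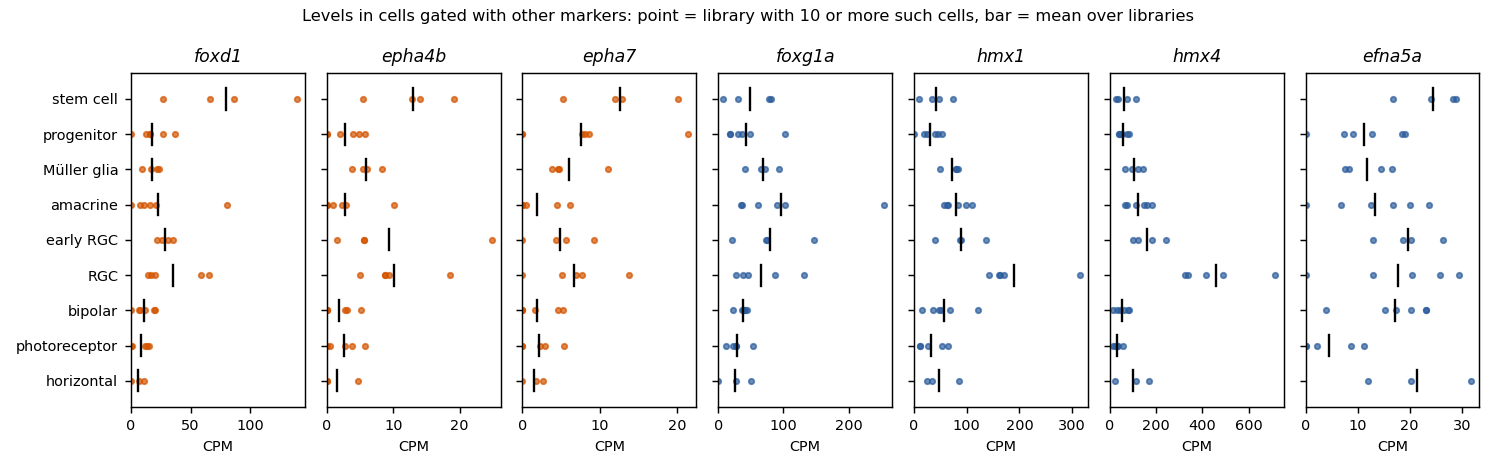
CPM of the 7 genes (x axes, 1 panel a gene, temporal genes in orange and nasal genes in blue) in the 9 retinal classes (rows). Each point is 1 library, shown where it held 10 or more such cells, and each bar the mean over libraries. hmx1 and hmx4 stand highest in RGC-gated cells (means of 191 and 456 CPM) and foxd1 in stem cell-gated cells (79.7 CPM).

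The sorted samples were then compared, since imaging in the study placed HS5 activity towards the temporal retina. Of the reporters, mCherry was higher in each library sorted for it, at 9.81, 1.04 and 5.37 CPM in mCherry-enriched libraries, against 0.643, 0 and 0.827 CPM in eGFP-enriched ones, whereas eGFP overlapped, at 32.0, 10.4 and 49.5 CPM against 16.8, 19.97 and 51.7 CPM. The mCherry value of 1.04 CPM rests on 1 UMI, in 0.709% of 141 retinal barcodes, and the 0 comes from a library of 68 retinal barcodes. By design, the mCherry-enriched samples took in cells positive for both reporters. foxd1 was at 32.6, 33.3 and 30.1 CPM in mCherry-enriched replicates 1 to 3, and at 17.1, 2.50 and 19.5 CPM in eGFP-enriched ones. All mCherry-enriched values lay above all eGFP-enriched values. Free foxd1 RNA, in barcodes with at most 100 UMIs, had the same order. It was at 29.0, 24.0 and 36.4 CPM in mCherry-enriched replicates 1 to 3, against 21.4, 17.7 and 23.6 CPM in eGFP-enriched ones. foxg1a was at 25.9, 37.4 and 45.9 CPM in mCherry-enriched libraries, against 62.6, 89.9 and 60.7 CPM in eGFP-enriched ones, with every mCherry-enriched value below. efna5a was at 12.8, 14.6 and 12.5 CPM, against 21.5, 17.5 and 18.8 CPM, again without overlap. Its nearest values, 14.6 and 17.5 CPM, rest on 11 of 141 and 5 of 68 barcodes with efna5a. Free efna5a RNA did not overlap either, at up to 4.34 CPM in mCherry-enriched libraries and from 5.41 CPM in eGFP-enriched ones. These levels rest on 3, 4 and 5 UMIs in mCherry-enriched replicates 1 to 3 and on 25, 11 and 13 in eGFP-enriched ones. Free foxg1a RNA overlapped, at 8.67 to 11.1 against 6.89 to 29.1 CPM. The part of free RNA in the differences between the sorts was not tested. hmx1 (57.9, 67.6 and 44.5 against 84.5, 47.4 and 77.6 CPM) and hmx4 (97.5, 153 and 94.6 against 125.3, 112 and 158 CPM) overlapped between the sorts, as did epha4b (7.09, 2.08 and 8.06 against 4.69, 0 and 5.91 CPM) and epha7 (9.22, 3.12 and 9.25 against 5.93, 0 and 7.63 CPM).

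None of these differences passed the adjusted threshold. By edgeR's quasi-likelihood test over 11812 genes, foxd1 had a log2 fold change of 0.93 ± 0.27 (SE), foxg1a of -0.91 ± 0.27, efna5a of -0.61 ± 0.21, hmx1 of -0.41 ± 0.22, hmx4 of -0.25 ± 0.22, epha4b of 0.41 ± 0.41 and epha7 of 0.37 ± 0.40, all with an adjusted p of 0.9995 (3 against 3 libraries). At an unadjusted p under 0.05 stood foxd1, foxg1a and efna5a, among 244 genes in all (2.07%). No member was called, with 0.0169% of all genes called, which were gch2 and CABZ01021592.1, both lower and both named here after their values were seen. DESeq2 called 0 members and 3 genes. The libraries did not overlap for 3 of the 7 members, against 7.11% of all genes.

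With the replicate number as a block, 26 genes were called (0.22%), but no member was. foxd1 then had a log2 fold change of 0.91 (adjusted p = 0.113), foxg1a of -0.94 (adjusted p = 0.0714) and efna5a of -0.65 (adjusted p = 0.443). In fits of single classes, where no gene was called, foxd1 and foxg1a had the same directions. foxd1 had log2 fold changes of 1.45 in RGC-gated, 1.5 in amacrine-gated, 1.22 in stem cell-gated and 0.56 in progenitor-gated cells. In amacrine-gated cells its share was at the level of red blood cell-gated barcodes, and mCherry-enriched replicate 2 stood apart at 80.4 CPM on 8 UMIs. By library the sorts overlapped in RGC-gated cells, at 58.3, 65.8 and 14.7 CPM in mCherry-enriched against 20.0, 0 and 16.6 CPM in eGFP-enriched replicates 1 to 3. They also overlapped for foxd1 in stem cell-gated and progenitor-gated cells. foxg1a had -1.63 in RGC-gated, -1.92 in stem cell-gated, -1.11 in progenitor-gated and -1.09 in photoreceptor-gated cells, but -0.21 in amacrine-gated and -0.01 in bipolar-gated cells. With at most 20000 UMIs the values were 0.75 for foxd1 and -0.75 for foxg1a but only -0.11 for efna5a, so that most of the difference in efna5a was lost without the deepest barcodes. Without eGFP-enriched replicate 2, the smallest library, and mCherry-enriched replicate 1 together, foxd1 had 0.83 and foxg1a -0.49.

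**Figure D4:**
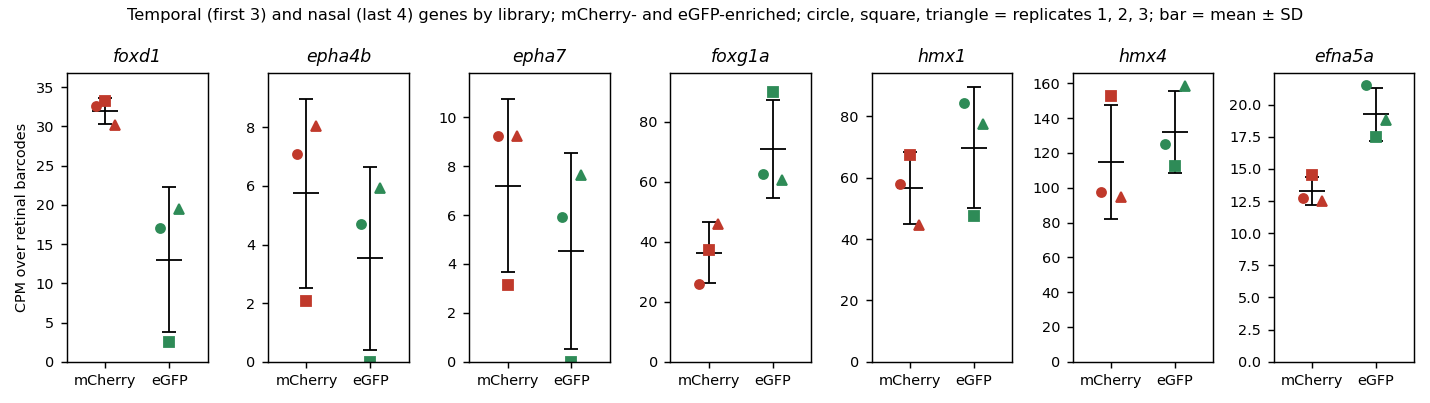
CPM over retinal barcodes (y axes, 1 panel a gene) in the 3 mCherry-enriched (left, red) and the 3 eGFP-enriched libraries (right, green). Symbols mark replicates 1, 2 and 3 and bars the mean ± SD. The sorts do not overlap for foxd1, foxg1a and efna5a.

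The same contrast was counted in cells. A foxd1-only barcode was defined by at least 1 foxd1 UMI and none of foxg1a, hmx1 and hmx4, and a nasal barcode by at least 1 of these 3 and no foxd1. There were 254 foxd1-only and 2344 nasal barcodes, while 386 held both and 2030 neither. Of the barcodes that held both, 260 had more than 20000 UMIs. The foxd1-only share of the 1-sided barcodes was 21.9, 16.2 and 15.1% in mCherry-enriched replicates 1 to 3, against 7.09, 0 and 9.41% in eGFP-enriched ones, again without overlap. With at most 20000 UMIs it was 21.2, 14.9 and 12.4%, against 7.76, 0 and 8.61%. The 0 was 0 of 34 barcodes. The part of free foxd1 RNA in these shares was not tested. Within classes the counts were small and the order less regular. In RGC-gated cells the share was 46.7, 28.6 and 4.88% in mCherry-enriched replicates 1 to 3, against 6.12, 0 and 3.70% in eGFP-enriched ones. In amacrine-gated cells it was 26.3, 10.0 and 2.78%, against 5.13, 0 and 6.11%, so that the sorts overlapped in both classes. In stem cell-gated cells 2 of 4, 1 of 2 and 10 of 19 1-sided barcodes were foxd1-only, against 8 of 67, 0 of 2 and 26 of 96 in eGFP-enriched replicates 1 to 3.

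Genes that did not define the groups were compared between foxd1-only and nasal barcodes of the same library, in the 5 libraries with at least 5 barcodes in both groups. The ephrin gene efna5a was at 0, 0 and 7.11 CPM in foxd1-only barcodes of mCherry-enriched replicates 1 to 3, against 21.9, 15.9 and 18.5 CPM in nasal barcodes. In eGFP-enriched replicates 1 and 3 it was at 11.3 and 2.61 CPM, against 24.2 and 25.5 CPM. It was thus lower in foxd1-only barcodes in 5 of 5 libraries, with a log2 fold change of -2.06 ± 0.46 (SE) and an adjusted p of 0.0171 by edgeR's quasi-likelihood test with the library as a covariate. These values rest on 16 UMIs in foxd1-only and 736 in nasal barcodes. efna5a passed the filter on low counts by its level in nasal barcodes, so the call depends on the group in which it was high. In this contrast 13.0% of 6793 genes were called, 4.96% as lower. The call ended without eGFP-enriched replicate 3 (log2 -1.75, adjusted p = 0.145), with at most 20000 UMIs (-1.77, 0.0890), without the 5% of barcodes with most UMIs (-1.95, 0.0546) and with non-retinal barcodes included (-0.73, 0.102).

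The receptor genes epha4b and epha7 were too low in count for the main filter, with 48 and 57 UMIs in foxd1-only and 117 and 136 in nasal barcodes. epha4b was at 7.78, 10.5 and 19.0 CPM in foxd1-only barcodes of mCherry-enriched replicates 1 to 3, against 4.47, 2.27 and 4.21 CPM in nasal barcodes, and at 15.9 and 17.4 against 3.97 and 3.33 CPM in eGFP-enriched replicates 1 and 3. It was higher in foxd1-only barcodes in 5 of 5 libraries. epha7 was at 9.34, 0 and 14.2 against 4.47, 0 and 5.05 CPM in mCherry-enriched libraries and at 21.5 and 22.6 against 3.97 and 5.59 CPM in eGFP-enriched ones, higher in 4 of 5 and at 0 in both groups of mCherry-enriched replicate 2. Without the filter, when 7.1% of 20831 genes were called and 2.87% were called higher, both passed, with log2 1.96 ± 0.40 for epha4b (adjusted p = 5.1e-05) and 1.95 ± 0.38 for epha7 (adjusted p = 1.98e-05). Both also stood higher in mesenchyme-gated cells than in any named retinal class, as given below.

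Among the other Eph receptors and ephrins, 11 of 25 could be tested, of which 1 was higher and 2 were lower in foxd1-only barcodes, with a median log2 fold change of -0.20 over the list against -0.02 over all genes. Of all genes tested, 13.0% were called, 4.96% as lower. epha3, a further EphA receptor, was higher in 5 of 5 libraries, with 17.1, 31.6 and 21.3 against 2.03, 2.27 and 5.90 CPM in mCherry-enriched and 23.8 and 19.1 against 3.58 and 0.714 CPM in eGFP-enriched libraries (log2 3.27 ± 0.41, adjusted p = 0.00214). These values rest on 66 UMIs in foxd1-only and 84 in nasal barcodes. epha3 passed the filter on low counts by its level in foxd1-only barcodes, so the call depends on the group in which it was high. The ephrin-A ligands efna1b (log2 -0.87 ± 0.25, adjusted p = 0.0423) and efna1a (log2 -0.84 ± 0.25, adjusted p = 0.0448) were lower in 5 of 5 libraries. With at most 20000 UMIs, efna1b was called but epha3 and efna1a were not. With groups matched for gated class, epha3 was called but efna1b and efna1a were not.

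Of the other nasal-temporal genes on a fixed list, 9 of 22 could be tested, of which 0 were higher and 3 lower in foxd1-only barcodes (median log2 -0.32). The shares over all genes were again 13.0% called and 4.96% called lower. The nasal factor's paralogues foxg1b (178 against 360 CPM; log2 -0.96 ± 0.14, adjusted p = 0.00492) and foxg1d (0.626 against 17.0 CPM; log2 -4.63 ± 0.58, adjusted p = 0.00214) were lower in 5 of 5 libraries, and nr2f2, an orphan nuclear receptor, was lower in 4 of 5 (log2 -1.06 ± 0.21, adjusted p = 0.00978). For foxg1d these values rest on 2 UMIs in foxd1-only and 522 in nasal barcodes, and its call depends on the group in which it was high. Reads of paralogues could be shared with foxg1a, which was used to define the groups. Of the dorsal-ventral genes 5 of 13 could be tested, and tbx3a, a dorsal T-box factor, was lower (log2 -1.01 ± 0.25, adjusted p = 0.0235). foxg1b was also called with at most 20000 UMIs and with groups matched for gated class. foxg1d, nr2f2 and tbx3a were called in neither setting. Between the sorts, 0 of the 20, 16 and 12 tested genes of the 3 lists passed the threshold. The ventral factor vax1 came nearest, with a log2 fold change of 1.68 ± 0.25 and an adjusted p of 0.0758.

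**Figure D5:**
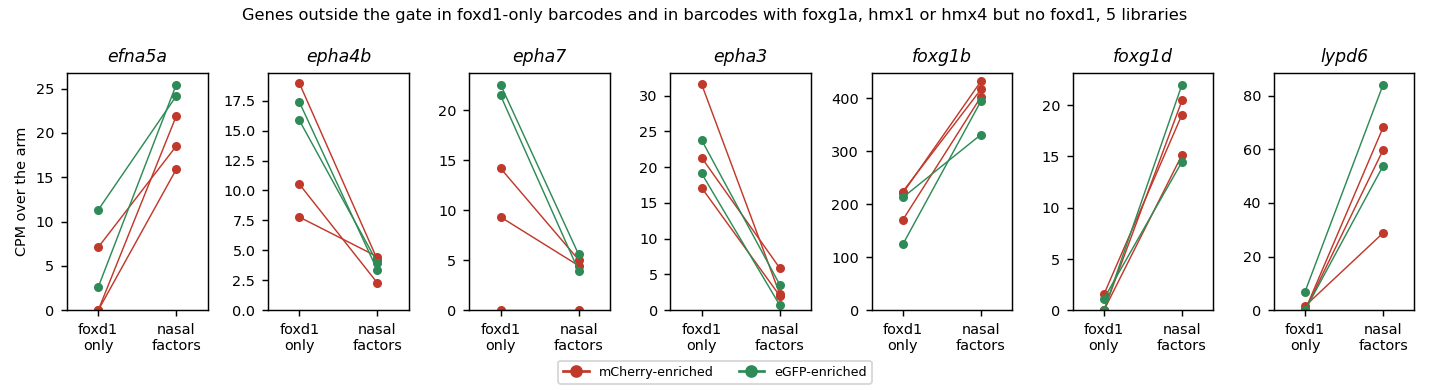
CPM (y axes) of 7 genes that did not define the groups, in foxd1-only barcodes (left) and in barcodes with foxg1a, hmx1 or hmx4 but no foxd1 (right). Each line joins the 2 values of 1 of 5 libraries, in red for mCherry-enriched and green for eGFP-enriched. efna5a, foxg1b, foxg1d and lypd6 are lower and epha3 and epha4b higher in foxd1-only barcodes in 5 of 5 libraries.

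Over all genes the largest difference towards foxd1-only barcodes was that of zgc:114181 (50.1 against 3.23 CPM; log2 4.33, adjusted p = 0.000161), followed by epha3 and by fabp11a, cx43 and sfrp1a (log2 2.81, 2.36 and 2.2). The next 5 were wfdc1, pprc1, dctpp1, ggctb and pleca (log2 1.97 to 2.11). None of these genes towards foxd1-only barcodes was called with at most 20000 UMIs. With groups matched for class, only zgc:114181, epha3 and ggctb were called. The calls of zgc:114181 and epha3 depend on the group in which these genes were high. fabp11a is one of the stem cell gate markers, cx43 encodes a gap junction protein and sfrp1a a secreted Wnt regulator. Towards nasal barcodes, after foxg1d, the largest differences were those of calb2a, a calcium-binding protein gene (0.939 against 25.6 CPM; log2 -4.57), and of lypd6 (2.82 against 60.6 CPM; log2 -4.33, adjusted p = 0.000405), a GPI-anchored protein gene of Wnt signalling. These values rest on 3 and 9 UMIs in foxd1-only barcodes, against 784 and 1857 in nasal ones. As for efna5a, the calls depend on the group in which the genes were high. calb2a and lypd6 were followed by rcvrn2, zgc:109965, CABZ01086611.1, esrrga, pclob, cntn2 and rlbp1a (log2 -2.57 to -2.15), of which rcvrn2 and rlbp1a are gate markers of photoreceptors and Müller glia. Of the genes named towards nasal barcodes, only lypd6, rcvrn2, cntn2 and rlbp1a were called with at most 20000 UMIs. With groups matched for class, only lypd6 was. CABZ01086611.1 was at 21.05 against 20.5 CPM in mCherry-enriched replicate 2, lower there only after TMM scaling. In these 5 libraries 24 genes were called in the same direction in all barcodes, with at most 20000 UMIs and with groups matched for class, among them lypd6, foxg1b and the photoreceptor factors crx and six7, which were lower and of which six7 is a photoreceptor gate marker. The share of genes called was 1.41% with at most 20000 UMIs and 1.1% with matched groups.

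The groups also differed in make-up. Stem cell-gated cells were 18.5% of foxd1-only and 6.1% of nasal barcodes, progenitor-gated cells 20.5 and 14.2%, amacrine-gated cells 10.2 and 16.3% and RGC-gated cells 11.8 and 15.5%. When groups were matched for class, 57 genes were called in place of 886, and 52 of the 53 that did not define the groups were among the main calls. Matching left 34, 11 and 33 barcodes in each group of mCherry-enriched replicates 1 to 3. In eGFP-enriched replicates 1 and 3 it left 74 and 101. The part of make-up and the part of the lost nasal barcodes in this fall cannot be told apart. Markers of periocular mesenchyme summed to 165 CPM in foxd1-only and 20.2 CPM in nasal barcodes, at 0 to 2.37 against 0 to 5.90 CPM in mCherry-enriched libraries but 168 and 328 against 6.50 and 57.8 CPM in eGFP-enriched replicates 1 and 3. In mesenchyme-gated cells, which were not counted as retinal, foxd1 was at 83.9, efna5a at 36.6, epha4b at 30.4 and epha7 at 19.8 CPM. Among the named retinal classes, epha4b was at most at 10.6 CPM (RGC-gated) and epha7 at 8.60 CPM (progenitor-gated), pooled over libraries. Without any barcode holding a mesenchyme marker, efna5a had a log2 fold change of -1.999 and an adjusted p of 0.0183, and 768 of the main calls that did not define the groups (87.1%) were kept. epha4b and epha7 were not among the genes tested in that fit, so the part of mesenchyme in their differences was not tested. Markers of telencephalon, another site of foxg1a, summed to 52.0 CPM in foxd1-only and 23.5 CPM in nasal barcodes, at 129 against 23.2 CPM in eGFP-enriched replicate 3 but 14.2 against 139.9 CPM in mCherry-enriched replicate 3. The part of telencephalic RNA in these differences was not tested.

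The reporter eGFP was at 40.5, 21.05 and 142 CPM in foxd1-only barcodes of mCherry-enriched replicates 1 to 3, against 36.6, 4.55 and 36.2 CPM in nasal ones. In eGFP-enriched replicates 1 and 3 it was at 7.93 and 114.7, against 16.4 and 57.1 CPM. It was higher in foxd1-only barcodes in 4 of 5 libraries, and the difference did not pass the threshold (log2 0.92 ± 0.34, adjusted p = 0.0986), although it did without eGFP-enriched replicate 1 (1.25, adjusted p = 0.0294), without RGC-gated and early RGC-gated cells (0.86, 0.0321) and with no filter (0.79, 0.0114). With at most 20000 UMIs it was 0.32 (adjusted p = 0.804). mCherry had 5 UMIs in foxd1-only and 41 in nasal barcodes (1.57 against 1.34 CPM), too few to read a direction by library. It was at 4.67 and 4.74 CPM in foxd1-only barcodes of mCherry-enriched replicates 1 and 3, against 9.75 and 5.05 CPM in nasal ones. In eGFP-enriched replicates 1 and 3 it was at 0 against 0.220 and 0.833 CPM. In mCherry-enriched replicate 2 it was at 0 in both groups. It was below the main filter and did not pass without it (log2 -0.94 ± 0.92, adjusted p = 0.791). The difference of efna5a between the groups did not itself differ between the sorts beyond its error (log2 -1.09 ± 1.23, adjusted p = 1.000).

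Finally, each member was compared across cells with the others among 13472 genes found in at least 50 cells, by Pearson's r within each library, averaged over the 6 libraries. The likest gene of hmx1 was hmx4 and the reverse, with a mean r of 0.443 (0.309 to 0.559), and foxg1a was most like hmx1 (0.232), foxn3 (0.231) and lypd6 (0.217). The next genes for hmx1 were pou4f1 (0.306) and isl2b (0.304), and for hmx4 stmn2b (0.392) and rbpms2a (0.385), of which pou4f1, isl2b and rbpms2a are RGC gate markers. foxd1 with foxg1a had a mean r of -0.09 and was negative in each of the 6 libraries, from -0.13 to -0.06. The genes most like foxd1, surf4l, ift172 and ttc27, had mean r of 0.218 to 0.254 that came from single small libraries, with an r of up to 1 in one and near 0 in another. All genes of a library share its depth and free RNA, and these values are descriptions.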

How the data were processed

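The files analysed were the raw UMI count matrices of 6 libraries, with all barcodes, which the authors made and deposited with Cell Ranger (version 6.1.2 by the methods; the file headers name Cell Ranger 4) on GRCz11 with eGFP and mCherry sequences added. Counts are not normalized. Retinal barcodes held 400668 to 42017471 UMIs a library. Barcodes were kept with at least 1000 genes and at most 10% mt- UMIs. Classes were gated by the mean z-score of log-scaled marker levels (at least 0.3, a margin of 0.1 and 3 markers), with 299 cells near these limits. Neither doublets nor free RNA were removed. Co-detection was described by a Mantel-Haenszel odds ratio over library and 5 UMI strata, with no test.

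UMIs were summed per library and group and tested with edgeR 4.0.16 (TMM, quasi-likelihood, Benjamini-Hochberg adjustment over all genes tested, R 4.3.3), with SE taken as the fold change over the root of F. DESeq2 1.42.0 was an alternative, as were filters, thinning to 1500 UMIs and omitted libraries. The fits were tested on simulated data. The labels give replicate numbers only, read here as rounds of sorting. Deviations of same-numbered libraries correlated at 0.203, 0.125 and 0.141 over 11812 genes, so the numbers were taken to pair the libraries, and blocked values are given. The comparisons of classes and of foxd1-only with nasal barcodes had the library as a covariate.

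Named genes were the 7 members, the reporters, list genes past the threshold, the 10 genes with the largest change each way that moved alike in every library on the TMM-scaled log2 scale, and the 3 likest genes of each member. Members and lists were chosen with earlier results of these data known. Python 3.11.15, numpy 2.4.6, pandas 2.3.3, scipy 1.17.1 and matplotlib 3.10.9 were used.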

Additional observations from a re-analysis of the deposited data

Results flagged for a closer look

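For each gene and class with 4 to 10 libraries, the library at either end was compared with its nearest neighbour by Dixon's criterion. Of 56 such groups 8 had a library that stood apart. For normal values about 1 in 20 would be flagged, and CPM from a few UMIs need not follow that rate. The flagged value of epha4b rests on 1 UMI and that of epha7 on 2. Those of foxd1 in amacrine-gated and foxg1a in progenitor-gated cells rest on 8 UMIs each. For hmx1 the flagged values rest on 41 UMIs in Müller glia-gated and 491 in RGC-gated cells. In amacrine-gated cells, foxd1 was at 80.4 CPM in mCherry-enriched replicate 2, against 0 to 20.8 CPM in the others, and epha4b was at 10.05 CPM in that library, against 0 to 2.84 CPM. foxg1a was at 254 CPM in amacrine-gated and at 102 CPM in progenitor-gated cells of eGFP-enriched replicate 2, the smallest library, against 35.3 to 102 and 17.6 to 48.5 CPM elsewhere. In bipolar-gated cells foxg1a was at 23.1 CPM in mCherry-enriched replicate 2, below 36.3 to 43.5 CPM in the others. In Müller glia-gated cells epha7 was at 11.03 CPM in mCherry-enriched replicate 3, against 3.87 to 4.73 CPM, and hmx1 at 48.5 CPM in mCherry-enriched replicate 1, against 78.8 to 82.7 CPM. In RGC-gated cells hmx1 was at 314 CPM in eGFP-enriched replicate 3, against 142 to 171 CPM in the other 4.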

How the results depend on the processing

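The log2 fold changes of all 7 members between the sorts kept their direction in every alternative that could be fitted, and none passed the threshold. The number of genes called between the sorts, 2 as reported, was 34 with no filter on low counts (16 higher and 18 lower, against 0 and 2), 26 with the replicate block, 4 with at least 500 genes and 800 UMIs, 1 after thinning, 1 with at most 20000 UMIs, and 0 with non-retinal barcodes included, without eGFP-enriched replicate 2 and mCherry-enriched replicate 1 together, and in each of 6 single classes. Leaving out 1 library gave 1 to 35 genes, with 35 without eGFP-enriched replicate 1 and 1 without mCherry-enriched replicate 1. The replicate block was fitted between the sorts only, where it changed no call of a member, and the other fits had the library as a covariate. The eGFP difference between the sorts (log2 0.06) turned to -0.13 with at most 20000 UMIs and -0.074 in amacrine-gated cells, and ranged from -0.42 (without mCherry-enriched replicate 3) through -0.38 (without eGFP-enriched replicate 1) to 0.94 (without eGFP-enriched replicate 3).

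Between foxd1-only and nasal barcodes, 886 genes were called. The number was 1478 with no filter (597 higher and 881 lower, against 549 and 337), 1389 without RGC-gated and early RGC-gated cells, 114 without the deepest 5% of barcodes, 75 with at most 20000 UMIs, 57 with matched classes, 50 with foxg1a alone as the nasal gate, 22 in mCherry-enriched libraries, 7 in stem cell-gated and progenitor-gated cells, 6 in RGC-gated and early RGC-gated cells and 4 after thinning. It was 17 to 862 with 1 library left out, with 17 without eGFP-enriched replicate 3 and 411 without mCherry-enriched replicate 3. The adjusted p of efna5a ranged from 1.09e-06 to 0.145 over its alternatives. Of 16 calls of members by class, there were 25 with no filter, 9 after thinning and 10 to 17 with 1 library left out (10 without eGFP-enriched replicate 3).

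Of the 12 temporal-nasal pairs, 10 were below expectation, against 0 with at least 500 genes and 800 UMIs (8 in 20 strata) and 6 to 11 with 1 library left out (6 without eGFP-enriched replicate 3). The odds ratio of foxd1 with foxg1a, 0.429, was 1.4 with at least 500 genes and 0.248 to 0.547 with 1 library left out. After thinning, foxd1 with epha4b fell to an odds ratio of 0.806, against 2.67 in all UMIs. The causes of these changes were not tested. epha4b and epha7 were detected in 263 and 290 of 5014 barcodes, so their counts carry wide errors.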

Other observations

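Of the 24 genes called alike in all barcodes, in those with at most 20000 UMIs and with matched classes, 10 were higher and 14 lower in foxd1-only barcodes. They were named after their values were seen. The replication gene mcm3 was at 122 CPM in foxd1-only and 49.3 CPM in nasal barcodes (log2 1.72 ± 0.28, SE; adjusted p = 0.0058), and nop58, a nucleolar gene among the stem cell gate markers, at 292 and 132 CPM (log2 1.54 ± 0.23, adjusted p = 0.0047). Ribosomal protein genes such as rps2 and rpl7 were higher by log2 0.41 and 0.43. The photoreceptor and bipolar factor crx was at 262 and 617 CPM (log2 -1.13 ± 0.13, adjusted p = 0.00191), otx5 at 136 and 311 CPM, the inhibitor of differentiation gene id2a at 71.7 and 219 CPM, and the synaptic gene snap25b at 65.4 and 161 CPM.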
